A study of Mus musculus with 38 samples.

Results

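The genes described here are 7 genes of MHC class II antigen presentation: H2-Ab1, H2-Aa, H2-Eb1, H2-DMa, H2-DMb1, Cd74 and Ciita. They were chosen by name. RNA values were read for 6 of the 7 among 11184 genes in the expression table, and the RNA of Ciita was not analysed here. Histone peaks were read around all 7. The cells were primary bone marrow-derived macrophages of C57BL/6 mice, and no genotype other than the strain is given. RNA was sequenced in 32 libraries, in 8 groups of 4. Macrophages received LPS (a bacterial cell wall component) at 5 ng/ml together with IFNg (interferon-gamma) at 12 ng/ml, the pair of agents used to drive the inflammatory state called M1, and RNA was taken at 0, 4, 8, 16 and 24 h. The remaining 3 RNA groups received the same LPS and IFNg and, in addition, lactic acid from 4 h on, and were taken at 8, 16 and 24 h, read here as hours after LPS and IFNg as the time label is named. The design text can also be read as hours after lactic acid, and under that reading the groups with and without lactic acid would differ in their time after LPS and IFNg as well. The dose of lactic acid is not given in the sources used here. Chromatin was examined with antibodies to lactylated and to acetylated lysine 18 of histone H3 (H3K18la and H3K18ac) in unstimulated cells (M0) and in cells after 24 h of LPS and IFNg (M1), with 1 library per mark and state. The labels do not say if the 4 libraries of a group stem from different mice or dishes, so p-values measure only the spread between these libraries, which may be technical.

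MHC class II molecules are pairs of an alpha and a beta chain that show peptides from the endosome to CD4+ T cells. H2-Aa and H2-Ab1 encode the alpha and beta chain of I-A, and H2-Eb1 encodes the beta chain of I-E. Mice of the C57BL/6 strain make no I-E alpha chain, so their I-E beta chain has no regular partner. The invariant chain encoded by Cd74 holds new class II molecules until they reach the endosome, and H2-DMa and H2-DMb1 encode the chains of H2-DM, which loads the peptide. Transcription of these genes depends on Ciita, a coactivator that is induced by interferon-gamma in macrophages and does not bind DNA itself. It is recruited to an array of promoter boxes (W/S, X and Y) that are bound by the RFX complex, CREB family factors and NF-Y.

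The promoter boxes are shown because these genes share a known promoter layout and yet, as described below, did not share 1 time course. Promoter sequences in the RefSeq table for GRCm38.p6, the build of the deposited peaks, matched 4 of the 7 genes. H2-Ab1, Cd74 and Ciita had no entry. The 150 bases before the start of 3 genes are printed 5′ to 3′ on the strand of the gene, with the boxes in capitals.
H2-Aa: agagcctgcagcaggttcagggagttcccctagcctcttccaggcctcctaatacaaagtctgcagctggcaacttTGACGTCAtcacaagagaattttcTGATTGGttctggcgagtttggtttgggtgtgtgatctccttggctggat
H2-Eb1: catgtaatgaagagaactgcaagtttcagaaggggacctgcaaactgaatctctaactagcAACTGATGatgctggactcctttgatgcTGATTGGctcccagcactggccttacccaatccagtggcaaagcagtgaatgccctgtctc
H2-DMb1: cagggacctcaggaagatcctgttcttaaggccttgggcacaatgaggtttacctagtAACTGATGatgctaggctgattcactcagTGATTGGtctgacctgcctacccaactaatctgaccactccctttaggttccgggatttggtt
These windows lie at chr17:34287824-34287973 on the minus strand (H2-Aa), chr17:34305717-34305866 on the plus strand (H2-Eb1) and chr17:34153041-34153190 on the plus strand (H2-DMb1). The searched letters were AACTGATG for the core of the X box, TGATTGG for the core of the Y box, which holds the NF-Y site, and TGACGTCA for the CREB-type site that forms part of the X region. Both strands were searched, and the letters were chosen after these sequences had been seen, so the matches are a description. No match overlapped another. The Y box core stood in all 3 promoters. It was preceded by an X box core in H2-Eb1 and H2-DMb1, with 20 and 21 bases between the boxes, and by the CREB-type site in H2-Aa, 16 bases away. Of 32851 RefSeq promoters, 5.71% held the Y box core in the same window, 1.36% the CREB-type site and 0.377% the X box core. Both the X and the Y box core stood in 15 promoters (0.0457%), among them those of H2-DMb1, H2-Eb1 and the class II gene H2-Eb2. The promoters of the other listed class II genes H2-Ob, H2-Oa and H2-DMb2 held the Y box core. Neither of the 2 promoter entries of H2-DMa held any of these letters. These entries start at chr17:34122832 and chr17:34125518, near starts of the neighbouring gene Brd2, one of which is at chr17:34122607. Any other start of H2-DMa was not searched, so the match does not cover all of its possible promoters.

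Each RNA library held between 60.6 and 103.9 M reads on the genes of the table. Values are RPKM (reads per kilobase of gene and per M reads), which the authors scaled by an effective library size. Whole reads could be recovered from them, and every library had at least 159 reads on each of the 6 genes. Replicate 4 at 24 h was the highest of its group in 6 of 6 genes, and replicate 1 at 24 h with lactic acid, which had the smallest effective size, in 4 of 6. At 0 h replicate 1 was the lowest in 6 of 6, and at 4 h replicate 2 was the highest in 6 of 6. Under a plain scaling, by the summed reads of each library in the table, the all-gene median shifted to -0.43, -0.40, -0.30 and -0.37 (log2) at 4, 8, 16 and 24 h against 0 h and to -0.15 for lactic acid at 24 h, and the share of higher among called genes fell from 51.6% to 20.4% at 24 h. All 10 macrophage markers on the list were measured, with a summed level of 10500 RPKM or more in every library. Lyz2 made up most of this sum, at 6351 RPKM or more, while the mean of Cd163 was 0.47 RPKM at 4 h and that of Mertk 2.04 RPKM at 8 h. Against 0 h, 2 of the 10 were called higher and 7 lower at 4 h (42.5% and 42.7% of tested genes). At 24 h, 6 were called higher and 3 lower (39.9% and 37.3%). Markers of other class II-bearing cells were low: 6 of 12 dendritic cell markers were listed, with sums of 3.13 to 6.83 RPKM, and 2 of 8 B cell markers, with sums of 1.54 to 6.36 RPKM. Flt3, Zbtb46, Ms4a1, Cd79a and Pax5 are not among the listed genes. The 2 of 6 T cell markers listed summed to 0.335 to 1.64 RPKM. In bulk RNA, fewer cells of a type and less RNA per cell cannot be told apart.

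The I-A and I-E chain genes and Cd74 rose within 4 h of LPS and IFNg, whereas the H2-DM genes first fell. Unstimulated RNA was taken at 0 h only. In comparisons between time points, LPS and IFNg therefore cannot be told apart from time in culture. Differences were tested with limma on log2(RPKM + 1) over 9942 genes, and a gene is called higher or lower at a Benjamini-Hochberg adjusted p under 0.05. At 4 h against 0 h, 4 of 6 genes rose and 2 fell, while 42.5% of all tested genes were called higher and 42.7% lower. Of 4 tested markers of dendritic cells, 3 were also higher at 4 h (Xcr1 at 1.60, Kmo at 0.48 and Itgax at 0.42) and Batf3 was lower (-0.38). The markers summed to 6.34 to 6.83 RPKM against 3.22 to 4.04 RPKM at 0 h. Below the filter, Irf4 went from 0.918 to 0.106 RPKM and Ccr7 from 0.00871 to 0.656 RPKM. Their part in the result was not tested. The median log2 fold change of the 6 genes was 1.66, beside 0.00 over all tested genes. At 8 h 4 genes were higher than at 0 h (40.7% of tested genes) and 1 was lower (42.1%), and at 16 h all 6 were higher (39.9%). At 24 h all 6 genes were again higher than at 0 h, beside 39.9% of tested genes, with a median of 0.99 beside 0.02. Step by step, 3 genes rose from 4 to 8 h (34.8% of tested genes), 3 rose and 3 fell from 8 to 16 h (36.1% and 34.2%), and the 2 H2-DM genes rose from 16 to 24 h (24.1%). Between 4 and 24 h there were 3 higher calls (H2-Ab1, H2-DMa and H2-DMb1, beside 42.3% of tested genes) and 3 lower calls (41.3%). The genes took 3 courses: H2-Ab1 rose up to 8 to 16 h and then held its level, H2-Aa, H2-Eb1 and Cd74 peaked early and then came down part of the way, and H2-DMa and H2-DMb1 dipped and then rose late.

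**Figure D1:**
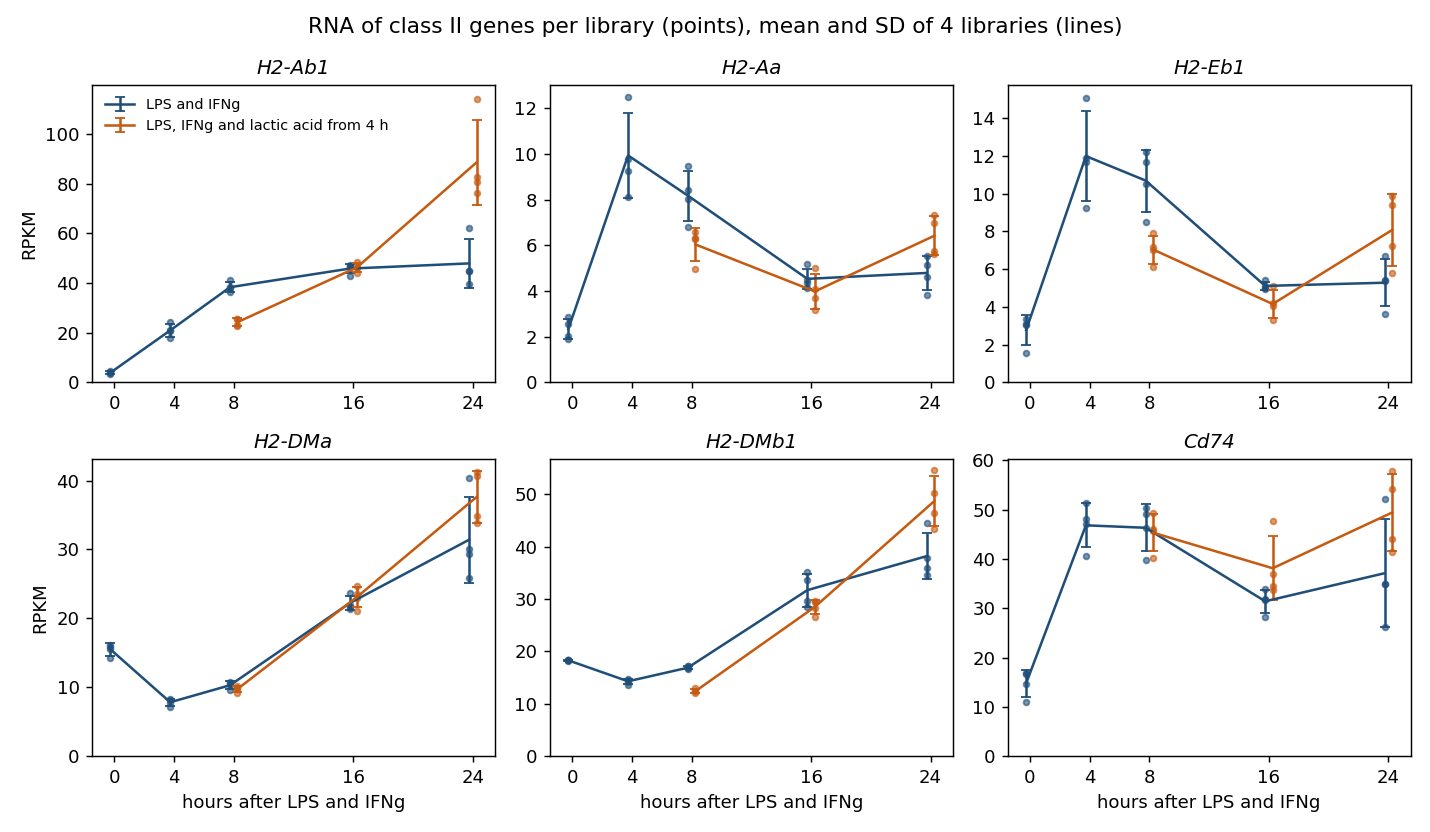
RPKM (linear axes from 0) of the 6 genes against hours after LPS and IFNg, without (blue) and with (orange) lactic acid from 4 h; points are libraries and lines join means with SD bars (n = 4). H2-Ab1 climbs from a mean of 3.86 to 47.9 RPKM, H2-Aa and H2-Eb1 peak at 4 h, and the H2-DM genes are lowest at 4 h without lactic acid.

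H2-Ab1, the I-A beta chain gene (ENSMUSG00000073421, chr17:34263227-34269418, plus strand, GRCm38.p6), changed the most of the 6. Its 4 libraries at 0 h read 3.13, 4.18, 4.41 and 3.73 RPKM, against 20.6, 24.1, 17.9 and 20.9 RPKM at 4 h. At 8 h they read 41.1, 36.2, 38.2 and 37.8 RPKM, at 16 h 46.8, 47.1, 46.5 and 42.9 RPKM and at 24 h 44.7, 45, 39.7 and 62.1 RPKM. No stimulated library overlapped the unstimulated ones, and the groups at 4, 8 and 16 h did not overlap each other. The mean at 24 h was 12.4 times that at 0 h. On the log2(RPKM + 1) scale the changes from 0 h at 4, 8, 16 and 24 h were 2.17, 3.02, 3.27 and 3.32 (SE 0.11 for each, limma adjusted p of 3.6e-18 or lower). The step from 4 to 8 h was 0.85 (SE 0.11, limma adjusted p = 3.1e-08). The step from 8 to 16 h, 0.25 (SE 0.11, limma adjusted p = 0.039), lost its call on leaving out any 1 of 6 libraries (8 h replicates 2, 3 and 4, and 16 h replicates 1, 2 and 3), at 0.23 to 0.25 with adjusted p of 0.063 to 0.091. From 16 to 24 h the change was 0.04 (limma adjusted p = 0.77).

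H2-Aa, the gene of the partner alpha chain (ENSMUSG00000036594, chr17:34282744-34287823, minus strand), peaked early. It read 1.88, 2.53, 2.85 and 2.04 RPKM at 0 h and 9.27, 12.5, 8.13 and 9.8 RPKM at 4 h. It then read 9.47, 8.02, 8.41 and 6.81 RPKM at 8 h, 4.11, 4.48, 5.17 and 4.37 RPKM at 16 h and 4.62, 3.83, 5.14 and 5.55 RPKM at 24 h. The groups at 4 and 8 h overlapped, and those at 16 and 24 h lay below both and above 0 h. The log2 change from 0 h was 1.71 at 4 h and 0.80 at 24 h (SE 0.12, limma adjusted p = 6.5e-07). Between 8 and 16 h it fell by 0.73 on the log2 scale (SE 0.12, limma adjusted p = 3.9e-06).

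H2-Eb1, the I-E beta chain gene (ENSMUSG00000060586, chr17:34305867-34316674, plus strand), followed H2-Aa closely. At 0 h it read 1.56, 3.03, 3.38 and 3.1 RPKM, and at 4 h 11.9, 15.1, 9.23 and 11.7 RPKM. The mean was 10.7 ± 1.65 RPKM (SD, n = 4) at 8 h, 5.11 ± 0.227 RPKM (SD, n = 4) at 16 h and 5.28 ± 1.25 RPKM (SD, n = 4) at 24 h. The log2 change from 0 h was 1.80 at 4 h and 0.74 at 24 h (SE 0.16, limma adjusted p = 1.1e-04), and the fall from 8 to 16 h was -0.93 (SE 0.16, limma adjusted p = 6.3e-06). Across the 8 group means of log2(RPKM + 1), H2-Eb1 and H2-Aa correlated at r = 0.99, while H2-Ab1 and H2-Aa correlated at r = 0.46. These correlations share libraries and are a description.

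The different courses of the I-A chain genes are clearest as a ratio within each library, which no library scaling can change. The RPKM of H2-Ab1 over that of H2-Aa was 1.67 ± 0.12 (SD, n = 4) at 0 h and 2.12 ± 0.14 at 4 h. It reached 4.74 ± 0.55 at 8 h, 10.2 ± 1 at 16 h and 10.1 ± 1.8 at 24 h. The 4 libraries at 24 h read 9.67, 11.7, 7.71 and 11.2, all above the 1.55 to 1.83 of the 4 libraries at 0 h. The log2 ratio was higher by 2.57 at 24 h, with a two-sided exact permutation p of 0.029, which is the smallest that 4 against 4 libraries can give. Adjusted over the 15 ratio comparisons this p is 0.061, and the ratios were chosen after the values had been seen. The ratio of H2-Eb1 to H2-Aa had group means from 1.05 to 1.31. Its groups at 24 h and 0 h overlapped (log2 difference -0.09, exact permutation p = 0.657, adjusted 0.76), while the libraries at 8 h (1.23 to 1.45) lay above those at 24 h (0.949 to 1.2). With lactic acid at 24 h the ratio of H2-Ab1 to H2-Aa was 13.8 ± 2.1 (SD, n = 4), and its groups with and without lactic acid overlapped (log2 difference 0.46, exact permutation p = 0.057, adjusted 0.11).

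**Figure D2:**
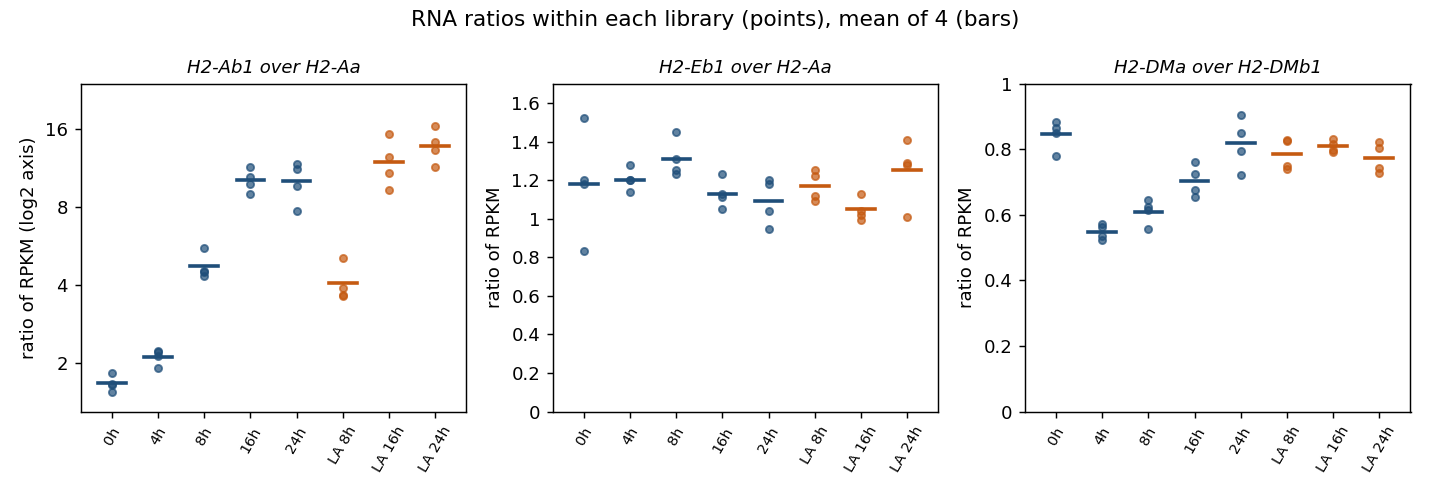
RPKM ratios within each library (points) and their means over 4 libraries (bars) in the 8 groups, blue without and orange with lactic acid (LA). The left axis is a log2 axis and the other axes are linear from 0. The ratio of H2-Ab1 to H2-Aa rises from 1.67 at 0 h to 10.1 at 24 h, while that of H2-Eb1 to H2-Aa keeps group means of 1.05 to 1.31.

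Cd74, the invariant chain gene (ENSMUSG00000024610, chr18:60803849-60812652, plus strand), read 11, 14.7, 16.8 and 16.6 RPKM at 0 h. It rose to 48, 51.3, 40.6 and 47.1 RPKM at 4 h and read 50.4, 46.2, 49.1 and 39.7 RPKM at 8 h. At 16 h it read 31.7, 28.2, 31.8 and 33.9 RPKM, below every library at 4 and 8 h. At 24 h the libraries spread from 26.2 to 52.2 RPKM, with replicate 4 the highest, and overlapped all of the earlier stimulated groups. The log2 change from 0 h was 1.61 at 4 h and 1.25 at 24 h (SE 0.14, limma adjusted p = 4.1e-09), and 1.07 at 24 h without the libraries 24 h replicate 4 and 24 h lactic acid replicate 1. The lower level at 24 h than at 4 h, -0.36 (limma adjusted p = 0.021), lost its call without 4 h replicate 2 (-0.32, adjusted p = 0.062) or 24 h replicate 2 (-0.22, adjusted p = 0.15). Cd74 correlated with H2-Aa at r = 0.86 and with H2-Ab1 at r = 0.77 over the 8 group means.

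The H2-DM genes moved the other way at first. H2-DMa (ENSMUSG00000037649) read 14.2, 15.9, 15.6 and 16.2 RPKM at 0 h and 7.15, 8.25, 7.76 and 8.16 RPKM at 4 h. It returned to 10.8, 10.6, 10.3 and 9.56 RPKM at 8 h and exceeded its starting level with 21.4, 22, 23.7 and 21.7 RPKM at 16 h and 30, 25.9, 29.4 and 40.4 RPKM at 24 h. Neighbouring time points did not overlap at any step. The log2 change from 0 h was -0.90 at 4 h (SE 0.08, limma adjusted p = 2.3e-11) and -0.54 at 8 h. It was then 0.50 at 16 h and 0.96 at 24 h (SE 0.08, limma adjusted p = 1.1e-11). Under the plain scaling, the change at 16 h was 0.13 and was no longer called (adjusted p = 0.077).

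H2-DMb1 (ENSMUSG00000079547) fell less and rose as far. Its libraries at 0 h lay between 18.2 and 18.4 RPKM, and those at 4 h read 13.6, 14.7, 14.5 and 14.2 RPKM. They were at 16.8, 17.3, 16.6 and 17.2 RPKM at 8 h, at 29.6, 33.7, 35.1 and 28.5 RPKM at 16 h and at 37.8, 35.9, 34.6 and 44.6 RPKM at 24 h. The log2 change from 0 h was -0.34 at 4 h (SE 0.07, limma adjusted p = 3.4e-05) and 1.02 at 24 h (SE 0.07, limma adjusted p = 1.6e-14). At 8 h it was -0.11 (limma adjusted p = 0.15), which became a lower call of -0.56 under the plain scaling and of -0.27 with the trend over gene length removed in each library. It was also called lower with only the compared groups in the model (adjusted p = 0.019), and the libraries at 0 and 8 h did not overlap. The ratio of H2-DMa to H2-DMb1 was 0.845 ± 0.046 (SD, n = 4) at 0 h, 0.549 ± 0.023 at 4 h and 0.818 ± 0.078 at 24 h. The groups at 0 and 4 h did not overlap (log2 difference -0.62, exact permutation p = 0.029, adjusted 0.061). Counts of H2-DMb1 are uncertain because its near-identical neighbour H2-DMb2 could share reads with it. The 2 genes correlated at r = 0.97 over the 8 group means.

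The order of the levels per length changed accordingly. At 0 h H2-DMb1 had the highest mean RPKM (18.3), followed by H2-DMa (15.5) and Cd74 (14.8), whose libraries overlapped, and by H2-Ab1 (3.86), H2-Eb1 (2.77) and H2-Aa (2.33), where the libraries of H2-Eb1 overlapped those of both I-A genes. At 24 h H2-Ab1 had the highest mean (47.9), but its libraries overlapped those of H2-DMb1 (38.2) and Cd74 (37.1) and, by 1 library, those of H2-DMa (31.4). H2-Eb1 (5.28) and H2-Aa (4.79) overlapped each other and stayed below the other 4 genes in all libraries at 24 h.

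**Figure D3:**
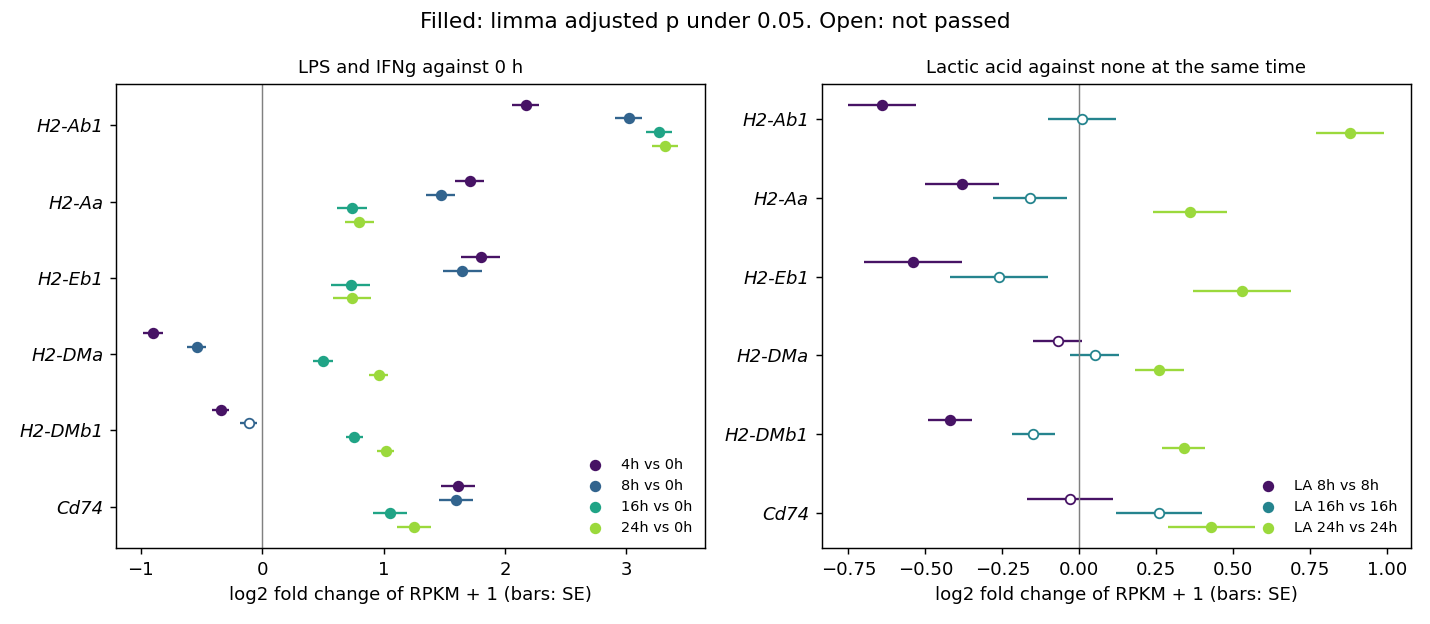
Log2 fold changes of RPKM + 1 with SE bars from limma, for each time point against 0 h (left) and for lactic acid (LA) against none at the same time (right). Filled points passed an adjusted p under 0.05 and open points did not. The H2-DM genes start below 0 at 4 h and end at 0.96 and 1.02, and lactic acid values run from -0.64 (H2-Ab1 at 8 h) to 0.88 (H2-Ab1 at 24 h).

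With lactic acid, 4 of the 6 genes were lower at 8 h and all 6 higher at 24 h than without it, and several of these calls depended on the processing. At 8 h, by the time label 4 h after lactic acid was added, 4 of 6 genes were lower than at 8 h without it and the other 2 passed in neither direction, while 36.0% of all tested genes were called lower and 32.1% higher. The median log2 difference of the 6 genes was -0.40 beside -0.02 over all tested genes. H2-Ab1 read 25.4, 23, 25.6 and 22.8 RPKM with lactic acid, all below the 36.2 to 41.1 RPKM without it (log2 difference -0.64, SE 0.11, limma adjusted p = 8.4e-06). H2-DMb1 read 12.4, 13, 12 and 12.4 RPKM, also without overlap (-0.42, SE 0.07, limma adjusted p = 4.3e-06). H2-Aa differed by -0.38 (limma adjusted p = 0.0066) and H2-Eb1 by -0.54 (limma adjusted p = 0.004). With the length trend removed in each library, H2-Aa (-0.16) and H2-Eb1 (-0.19) lost their calls and H2-DMa, at -0.07 before (limma adjusted p = 0.44), was called higher at 0.19. Cd74 differed by -0.03 (SE 0.14, limma adjusted p = 0.86).

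At 16 h limma called 0 of the 6 genes different with lactic acid, with 1 at an unadjusted p under 0.05, and edgeR also called 0, while 61.2% of all tested genes were called by limma in either direction. H2-Ab1 read 46.6, 44.1, 46.1 and 48.3 RPKM with lactic acid and overlapped the 16 h group (log2 difference 0.01, SE 0.11). H2-Eb1 differed by -0.26 (SE 0.16, limma adjusted p = 0.17) and was called lower with only the compared groups in the model (adjusted p = 0.026). Cd74 differed by 0.26 (SE 0.14, limma adjusted p = 0.12), with 38.1 ± 6.5 RPKM with lactic acid against 31.4 ± 2.37 RPKM without (SD, n = 4 each). H2-DMb1, at -0.15 (limma adjusted p = 0.063), was called lower without 16 h replicate 1 (-0.18) or 16 h replicate 4 (-0.19).

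At 24 h all 6 genes were higher with lactic acid, beside 25.5% of tested genes called higher, but 4 of these calls depended on the scaling and on single libraries. The genes had a median log2 difference of 0.40 beside 0.01 over all tested genes. H2-Ab1 read 114.3, 76.4, 82.9 and 80.8 RPKM with lactic acid, all above the 39.7 to 62.1 RPKM without it (log2 difference 0.88, SE 0.11, limma adjusted p = 1.5e-07). Its mean was 1.85 times that without lactic acid. H2-DMb1 read 54.6, 46.5, 50.2 and 43.4 RPKM and overlapped the group without lactic acid through 24 h replicate 4 at 44.6 RPKM (0.34, SE 0.07, limma adjusted p = 1.4e-04). H2-Aa read 6.98, 5.75, 7.31 and 5.63 RPKM and did not overlap (0.36, SE 0.12, limma adjusted p = 0.015). H2-Eb1 differed by 0.53 (limma adjusted p = 0.0073), Cd74 by 0.43 (limma adjusted p = 0.014) and H2-DMa by 0.26 (limma adjusted p = 0.011), and in each of these the groups overlapped. The groups did not overlap for 2 of 6 genes, H2-Ab1 and H2-Aa, beside 14.2% of tested genes without overlap in the higher direction. Markers of dendritic cells summed to 4.25 to 5.98 RPKM with lactic acid and 3.13 to 4.34 RPKM without, with Batf3 as the 1 of 4 tested that was higher (0.43). The T cell marker Lck, the 1 tested of 2 listed, was also higher (0.26), while the B cell markers summed to 3.5 to 5.47 RPKM with and 3.98 to 6.2 RPKM without lactic acid. The part of these cells in the result was not tested.

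Only H2-Ab1 and H2-DMb1 kept these calls at 24 h under every alternative run. Leaving out 24 h replicate 2 left 2 of 6 genes called, and so did the plain scaling, which gave 0.18 for H2-Aa, 0.34 for H2-Eb1, 0.06 for H2-DMa and 0.22 for Cd74. Without 24 h replicate 2 the values were 0.28 for H2-Aa, 0.39 for H2-Eb1, 0.18 for H2-DMa and 0.29 for Cd74. H2-Aa also lost its call without 24 h lactic acid replicate 3 (0.30), and Cd74 without 24 h lactic acid replicate 1 (0.35). With only the compared groups in the model, H2-DMa (adjusted p = 0.16) and Cd74 (adjusted p = 0.11) lost theirs. Without 24 h replicate 4 and 24 h lactic acid replicate 1 together, all 6 genes were called higher.

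The effect of lactic acid at 24 h minus that at 8 h, tested as 1 contrast, was above 0 and called in all 6 genes, beside 32.7% of tested genes. It was 1.52 (log2, SE 0.15) for H2-Ab1, 1.07 (SE 0.23) for H2-Eb1, 0.76 (SE 0.10) for H2-DMb1, 0.74 (SE 0.17) for H2-Aa and 0.34 (SE 0.12) for H2-DMa, with limma adjusted p of 0.015 or lower. For Cd74 it was 0.46 (SE 0.20, limma adjusted p = 0.049), and this call was lost under 18 of 25 alternatives, at 0.07 to 0.47. Among them are the fits without any 1 of replicates 1, 2 and 3 at 8 h, replicates 1, 2 and 3 at 24 h, replicates 1, 2 and 4 at 8 h with lactic acid, or replicates 1 and 3 at 24 h with lactic acid. For H2-DMa it was lost under the plain scaling (0.05), with the length trend removed (0.01) and with only the compared groups in the model (0.34, adjusted p = 0.052).

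H2-Ob is the 1 other class II gene of the list that has a row in the expression table; it encodes the beta chain of H2-O, an inhibitor of H2-DM. Its mean was 0.861 ± 0.0731 RPKM in unstimulated cells, 0.578 ± 0.0451 RPKM at 4 h and 1.74 ± 0.257 RPKM at 24 h (SD, n = 4 each). With lactic acid it read 7.44, 4.9, 5.8 and 5.54 RPKM at 24 h, all above the 1.47 to 2.08 RPKM without it. The log2 difference of 1.33 (SE 0.08, limma adjusted p = 2.5e-14) was larger than that of any of the 6 genes. At 16 h with lactic acid it read 1.87, 1.73, 1.86 and 2.48 RPKM against 0.912 to 1.12 RPKM without.

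Of the 8 listed factors that bind class II or Ciita promoters, 1 rose and 3 fell at 24 h against 0 h, with a median log2 change of 0.09, while 39.9% of tested genes were called higher and 37.3% lower. Rfx5, a DNA-binding subunit of RFX, fell from 1.9 ± 0.204 to 0.772 ± 0.213 RPKM (SD, n = 4 each; log2 change -0.71, limma adjusted p = 2.2e-11). Nfyc, a subunit of NF-Y, fell from 5.95 ± 0.171 to 2.86 ± 0.215 RPKM (SD, n = 4 each; -0.85, limma adjusted p = 7.3e-12), while Nfya rose by 0.26. With lactic acid at 24 h, 2 of 8 were higher (Usf1 by 0.35 and Nfya by 0.20) and 2 lower (Rfx5 at -0.16 and Nfyb at -0.12), beside 25.5% and 21.7% of tested genes.

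Of the 10 genes of interferon-gamma signalling upstream of Ciita, 9 were higher at 24 h than at 0 h (median 0.62), beside 39.9% of tested genes. The largest changes were in feedback inhibitors and a receptor chain: Socs3 at 5.09, Socs1 at 1.72 and Ifngr2 at 1.20. Socs3 stood at 0.833 RPKM at 0 h, 514.0 RPKM at 4 h and 61.4 RPKM at 24 h (means of 4 libraries). With lactic acid at 24 h, 3 were higher and 3 lower, beside 25.5% and 21.7% of tested genes, among them Socs3 at 0.42, Ptpn2 (a phosphatase acting on JAK and STAT proteins) at 0.27 and Irf1 (a transcription factor of the Ciita promoter) at -0.24.

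The list of endosomal antigen processing holds 7 proteases, which trim the invariant chain and make peptides, and Ifi30, a thiol reductase. Of these 8 genes 5 rose at 24 h (median 0.88), beside 39.9% of tested genes, led by Ctsl at 2.14, Ctsh at 1.99 and Ctsz at 1.14. Ctsl rose from 580.0 ± 14 to 2572 ± 308.2 RPKM (SD, n = 4 each). Lactic acid at 24 h went with higher levels of 4 of 8 (median 0.14), beside 25.5% of tested genes: Ctsl and Ctsh at 0.35 each, Ctsb at 0.22 and Ifi30 at 0.18. Among genes of surface turnover and tetraspanins, 4 of 8 listed symbols had values; the list counts March1 and March8 under older and newer names. Cd83, which stabilises surface class II, fell from 17.8 ± 1.19 RPKM at 0 h to 0.692 ± 0.139 RPKM at 24 h (SD, n = 4 each; log2 change -3.48, limma adjusted p = 6.7e-25), after 63.6 ± 6.91 RPKM at 4 h. Cd63 and Cd9, tetraspanins, changed by 0.48 and 0.33. All 4 were higher with lactic acid at 24 h, beside 25.5% of tested genes, with Cd9 at 1.20, Cd83 at 0.75 and Cd63 at 0.27. Cd82, at 0.14, was near the threshold (limma adjusted p = 0.042).

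Among 5482 tested genes whose group means span at least 1 log2 unit, the genes whose pattern over the 8 group means was most like that of H2-Ab1 were Ifitm2 (r = 0.996), Wfdc18 (r = 0.996), Prdx5 (r = 0.992), Saa1 (r = 0.990) and Ifitm3 (r = 0.988). All 5 had higher group means at 24 h than at 0 h and higher still with lactic acid at 24 h. The groups share libraries and treatment, so these values are a description.

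Histone peaks were compared as the authors called them, in 1 library per mark and state, so no difference below was tested. A gene counts as marked when a peak overlaps the 2 kb before or after its RefSeq start. This start is the 5′ end of the RefSeq span of the gene, and other starts were not counted. H3K18la marked 2 of 7 genes in M0 and 4 of 7 in M1, while it marked 47.7% of 17495 genes in M0 and 38.2% in M1. H3K18ac marked 6 of 7 genes in M0 and 7 of 7 in M1, beside 51.4% and 49.7% of all genes. The gene that gained a start peak of H3K18ac was H2-Eb1, as did 2.10% of all genes and 4.33% of those unmarked in M0. The M1 list of H3K18la was shorter than the M0 list (16139 against 21885 peaks). Its library held 0.46 times the spike-in reads of the M0 library, at 21.0 against 21.8 M mouse reads. With mouse reads this close, scaling to the spike-in would raise H3K18la in M1 relative to M0, and no such scaling was applied here. For H3K18ac the M0 and M1 lists held 41493 and 42237 peaks, with a spike-in ratio of 0.96 at 36.6 and 32.9 M mouse reads.

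H2-Ab1 and H2-Eb1 had an H3K18la peak at the start in M1 and none in M0. Across all genes, 212 (1.21%) had this pattern, 2.32% of those unmarked in M0, while 10.8% had a start peak in M0 and none in M1. The M1 peak at H2-Ab1 ran from 2.51 kb before to 2.01 kb after the start (chr17:34260715-34265238), with a fold enrichment given by the authors of 4.22 and a -log10 q of 5.68. The M1 peak at H2-Eb1 ran from 1.33 kb before to 0.22 kb after the start (chr17:34304533-34306089, fold 3.94, -log10 q 4.56) and covered the promoter printed above, both boxes included. H2-Eb1 had a small H3K18la peak within the gene in M0, 3.69 to 4.09 kb after the start. Both M1 peaks stood near the middle of their list by q value (percentiles 51.3 and 41.3).

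H2-Aa and H2-DMb1 had no H3K18la peak within 5 kb of the gene in either state. Cd74 was marked in both states, by a peak from 1.37 to 3.95 kb after the start in M0 (fold 3.05, -log10 q 2.13) and by one that covered the start in M1 (fold 4.71, -log10 q 7.47). At H2-DMa the start peak was strong in both states (fold 20.03 in M0 and 15.04 in M1), but it cannot be assigned to H2-DMa alone. The RefSeq gene span (chr17:34119693-34139101) begins inside the neighbouring gene Brd2, which is read from the opposite strand, and the same peak covered a start of Brd2. Of the 2 promoter entries of H2-DMa, the start peak covered chr17:34122832 but not chr17:34125518, in both states. Smaller H3K18la peaks stood 16.09 to 17.05 kb after the start in M0 (fold 3.07) and 15.96 to 17.25 kb in M1 (fold 4.43). Others stood 22.98 to 23.96 kb after it in M0 (fold 4.76) and 22.4 to 23.29 kb in M1 (fold 3.16). Ciita (chr16:10480014-10531064) had no H3K18la peak within 2 kb of the 5′ end of its RefSeq span, the only start examined. It had 1 peak in M0 and 3 in M1 within the gene and 5 kb on each side, the additional 2 lying 7.12 to 7.7 kb and 8.94 to 10.39 kb after the start. Whether these peaks lie at another start of Ciita was not examined.

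H3K18ac widened over most of the genes in M1. The share of each gene and its 5 kb flanks under a peak went from 3.5% in M0 to 43.8% in M1 for H2-Ab1, from 3.5% to 50.3% for H2-Aa and from 13.7% to 56.0% for H2-Eb1. For Ciita it went from 24.4% to 62.7%, for H2-DMa from 48.5% to 89.8% and for H2-DMb1 from 3.6% to 13.4%. The H3K18ac peak over the H2-DMa start in M1 was 39.76 kb wide. It also covered a start of Brd2, so it cannot be assigned to H2-DMa alone. Cd74 was the exception, with 39.8% in M0 and 35.8% in M1. Over all genes with any such peak the median share was 8.9% in M0 and 10.5% in M1. In M1 a single H3K18ac peak of 14.52 kb covered the start of H2-Aa (chr17:34285235-34299758, fold 4.05), where M0 had a peak of 0.53 kb inside the gene. At Ciita, peaks of 22.29 kb over the start and 16.89 kb within the gene stood in M1 where M0 had peaks of 9.29, 2.48 and 3.5 kb.

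**Figure D4:**
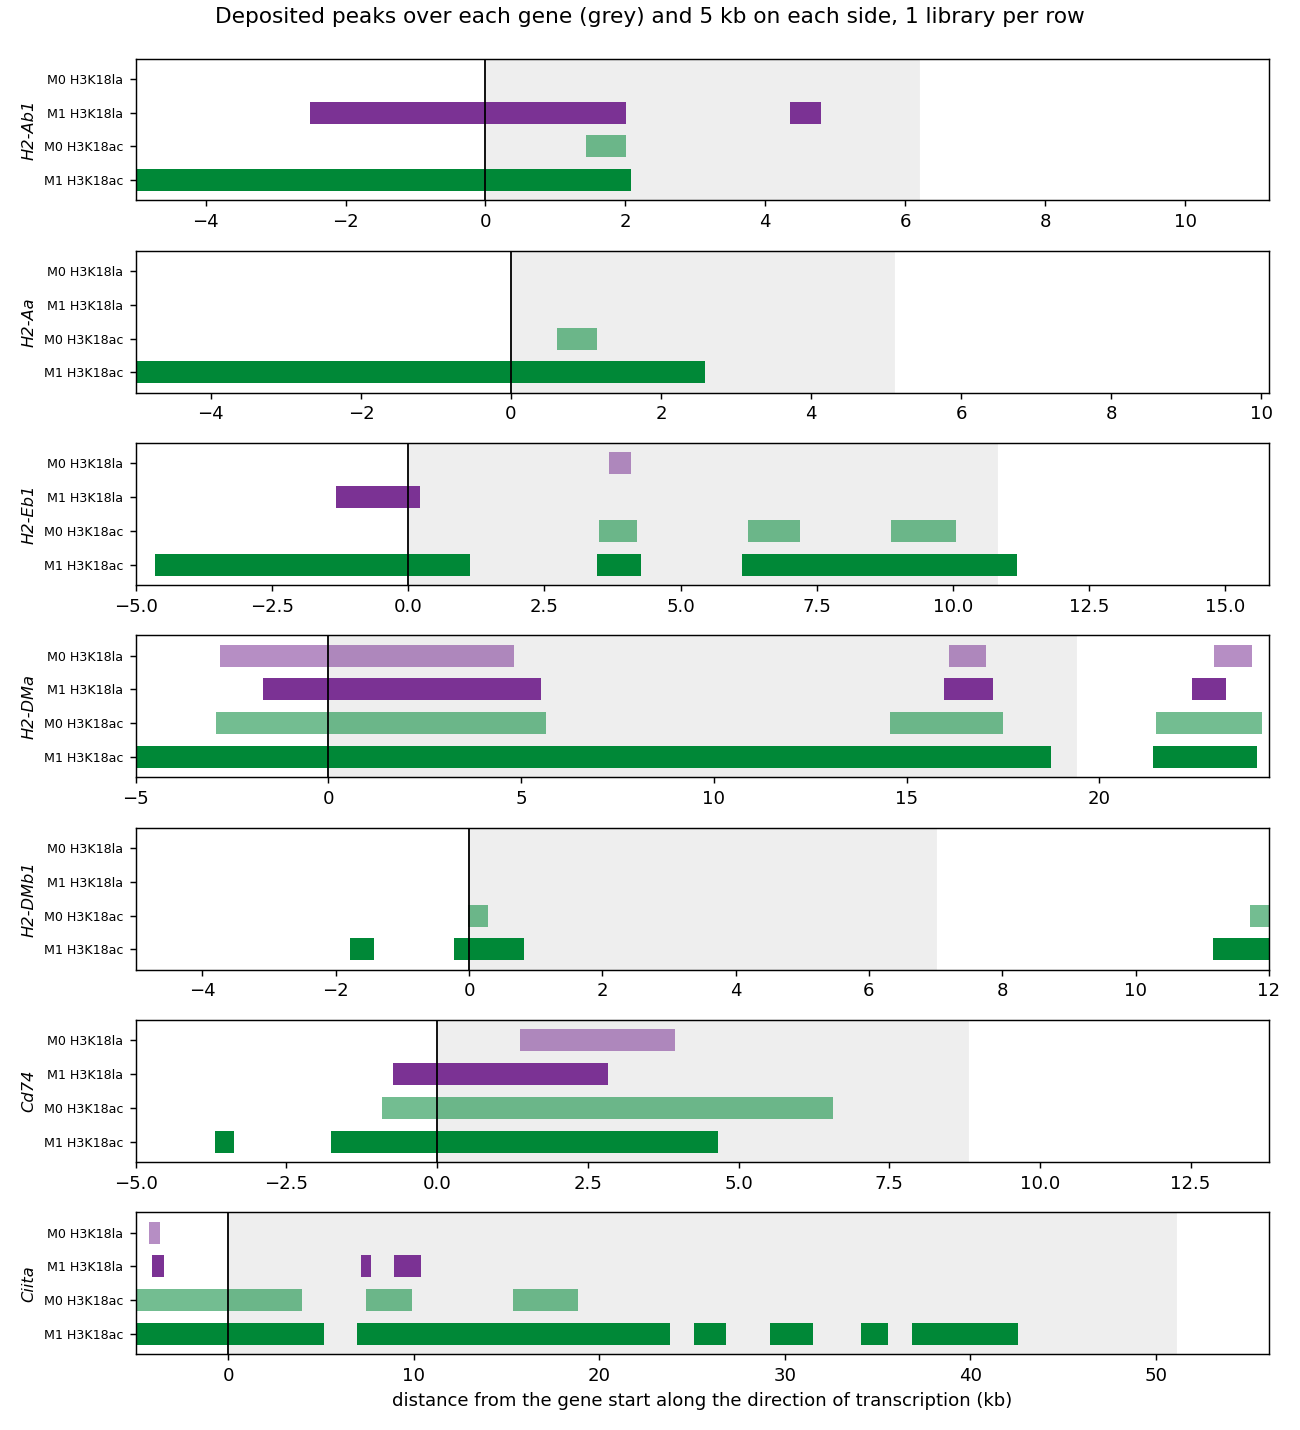
Deposited H3K18la (purple) and H3K18ac (green) peaks over the 7 genes (grey) and 5 kb on each side, drawn to scale in each panel by distance in kb from the RefSeq start (black line) in the direction of transcription; pale bars are M0, dark bars M1, 1 library per row. H3K18la peaks at the starts of H2-Ab1 and H2-Eb1 appear in the M1 rows only, and H3K18ac peaks cover more of the window in M1 at every gene except Cd74.

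The RNA and peak data side by side show no single pattern. H2-Ab1, which had the largest RNA change at 24 h (12.4 times), had a start peak of H3K18la in M1 only. H2-Eb1 had the same peak pattern with an RNA mean at 24 h of 1.91 times that at 0 h, and H2-Aa had no H3K18la peak with 2.06 times. H2-DMb1 had no H3K18la peak either and rose to 2.09 times. With 7 genes and 1 library per mark and state, no relation between peaks and RNA was tested.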

How the data were processed

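RNA values were deposited by the authors as RPKM, relative to an effective library size. The same deposited table holds the authors' log2 fold changes over 0 h, p-values and FDR, which were not used here. For each ChIP-seq library the authors deposited a count of mouse and of spike-in reads. Each deposited peak carries a score, a fold enrichment (ratio) and -log10 p and q values, as the broadPeak layout defines them. HISAT2 2.1.0, featureCounts 1.5.0-p1, edgeR, Bowtie2 2.2.6, SAMtools 0.1.19 and MACS2 2.2.1 are named per the submitters' processing notes, with builds mm10 and GRCm38, and RNA libraries were stranded, per the labels' protocols. Whether counting used strand, and the threshold and control of the peak calls, are not given in the sources used here. Reads of H2-DMa and of Brd2 on the other strand could therefore share counts.

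Of 11184 listed genes, the 9942 that reached 1 RPKM in 4 or more libraries were tested with limma 3.58.1 (limma-trend, R 4.3.3) on log2(RPKM + 1), with 1 mean per group over all 32 libraries (24 residual degrees of freedom) and Benjamini-Hochberg adjustment over all tested genes, in 12 contrasts. On this scale fold changes of low genes are understated. The fit was tested on simulated data. Ratios of RPKM were tested with exact permutation tests in Python (scipy 1.17.1). Whole reads were recovered from the RPKM (100.0% of values within 0.05 of a whole number), and edgeR 4.0.16 on these reads was an alternative; it called 7650 genes at 24 h against 0 h, where limma called 7679. The other alternatives were pseudocounts of 0.1 and 0.5, no filter, scaling to listed reads, a length trend removed per library, only the compared groups, a replicate block, and leaving out libraries. Peaks and starts overlap by at least 1 base.

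The genes, the related lists and the marker lists were chosen with earlier results of these data known. Up to 3 genes per list with the largest called change at 24 h against 0 h, and with lactic acid at 24 h, are named, and the 5 genes most like H2-Ab1. Nfyb, Ifi30, Cd82, Lck and the dendritic cell markers fall outside that rule and were chosen after their values were seen, as was H2-Ob at 16 h.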

Additional observations from a re-analysis of the deposited data

Results flagged for a closer look

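The effect of lactic acid differed between 8 h and 24 h, by the test of the difference itself, in all 6 genes with RNA values, beside 32.7% of tested genes called in the same direction. The log2 effect at 24 h minus that at 8 h was 1.52 for H2-Ab1, 0.74 for H2-Aa, 1.07 for H2-Eb1, 0.34 for H2-DMa, 0.76 for H2-DMb1 and 0.46 for Cd74. The call of Cd74 was lost under 18 of 25 alternatives, edgeR among them, and that of H2-DMa under 3 of 25.

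In H2-Ab1 at 16 h, replicate 4 read 42.9 RPKM, apart from the other 3 libraries at 46.5 to 47.1 RPKM. Its gap to the nearest library was 0.854 of the range of the group, above Dixon's 95% critical value for 4 libraries. This was 1 of 48 combinations of gene and group examined, and chance alone marks about 1 in 20.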

How the results depend on the processing

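Of 1230 values of single genes under an alternative, 1169 kept their side of the threshold, 46 lost and 14 gained a call, and 1 called value had the other sign: H2-DMa with lactic acid at 8 h read 0.19 with the length trend removed. Of the 1169, another 19 changed sign without a call on either side (values of -0.09 to 0.28), among them Cd74 with lactic acid at 8 h (0.28) and H2-DMb1 with lactic acid at 16 h (0.04), both with the length trend removed. With lactic acid at 16 h, where 0 genes were called, the count was 1 under the plain scaling, 2 with the length trend removed and 2 with only the compared groups, and 0 to 1 on leaving out 1 library. With lactic acid at 24 h, 2 of 6 genes were called under the plain scaling, beside 1035 higher and 4617 lower among all tested. On leaving out 1 library 2 to 6 were called, beside 4134 to 5439 among all tested in either direction. With only the compared groups, 1 gene was called from 16 to 24 h (2 otherwise), and the genes called among all tested were 2685 from 16 to 24 h (4714 otherwise) and 2257 with lactic acid at 24 h (4685 otherwise), where fewer libraries give fewer degrees of freedom. The cause of the other changes was not tested.

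The plain scaling moved the share of higher among called genes to 26.9%, 25.7% and 25.6% at 4, 8 and 16 h against 0 h (49.9%, 49.2% and 51.9% otherwise). It moved that share to 18.3% with lactic acid at 24 h (54.0% otherwise), 33.1% from 16 to 24 h (50.9% otherwise) and 26.0% for the difference of the lactic acid effects (52.4% otherwise). The H3K18la count in M0 was 1 within 1 kb, 4 within 5 kb and 1 at a -log10 q of at least 5 (2 otherwise), and the H3K18ac count in M0 was 3 at that limit (6 otherwise). In M1, the H3K18la start peak of H2-Eb1 (4.56) and the H3K18ac start peaks of H2-DMb1 (3.33 and 3.63) also lay below that limit. With a pseudocount of 1, the log2 ratio of H2-Ab1 to H2-Aa at 4 h differed from 0 h by 0.46 (0.34 otherwise).

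Replicate numbers recur across groups, but same-numbered libraries did not deviate together throughout. Their correlations ran from -0.64 to 0.51, in no contrast were all 4 pairs over 0.1, and at most 2 of 4 libraries correlated best with their own number. For 24 h against 0 h and against 4 h, 3 of 4 pairs were over 0.1, so a pairing of some libraries remains possible. With the replicate block, the counts of called genes stayed at 6 of 6 at 24 h against 0 h and with lactic acid at 24 h, and went to 5 of 6 for the difference of the lactic acid effects, where Cd74 at 0.46 lost its call (adjusted p = 0.051).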
